A study of Mus musculus with 6 samples.

Results

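The genes described here are 39 named genes of glycolysis and of the response to low oxygen, out of 25655 gene identifiers measured. They form a list of names: 24 glycolytic enzymes, their regulators and the carriers of glucose and lactate, and 15 genes linked to the hypoxia-inducible factor HIF. A gene had to reach at least 1 CPM (the reads of a gene scaled to a common library total) in 3 or more libraries, and all 39 did so. The least expressed were Car9, which reached that level in 3 libraries, and Ldhb, which reached it in 4.

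Glycolysis splits glucose into pyruvate in a chain of enzymes, and the pyruvate is either reduced to lactate and exported or passed to mitochondria. Naive T cells turn to rapid glycolysis when they are activated through the T-cell receptor, and effector CD8 T cells are known for high glucose uptake and lactate output. HIF, a dimer of an oxygen-regulated alpha subunit and Arnt, induces most glycolytic genes and genes such as Vegfa. EGLN hydroxylases mark the alpha subunit for removal by the Vhl ubiquitin ligase while oxygen is present, and T-cell receptor signals raise it in normal oxygen as well.

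The cells were splenic CD8 T cells from female C57BL/6 mice, labelled as a knockout of Utx (Utx KO) or as wild type (WT), with 3 libraries of each genotype. Utx is the demethylase of lysine 27 of histone H3 encoded by Kdm6a. Naive cells of both genotypes were purified as low for CD44, stimulated for 2 days on immobilized antibody to TCR-beta at 3 µg/ml, with antibody to CD28 at 1 µg/ml and interleukin 2 at 10 ng/ml, and kept for 3 days more in interleukin 2 alone. Messenger RNA was read from the 3' end at day 5, and the question was how the Utx KO cells differ from WT cells. The labels call the libraries biological replicates without naming separate animals. The p-values below therefore cover differences among libraries, not among animals known to be separate. In the limma fit the variance of a gene is drawn partly from its own libraries and partly from the trend over all tested genes. The labels give neither the deleted part of Utx, nor the Cre or promoter behind the deletion, nor the age of the mice.

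Library totals recovered from the values ran from 1619085 to 2517655 reads in Utx KO and from 1827703 to 2529113 reads in WT, so that 3 reads, the limit a count of 0 allows, stand for 1.19 to 1.85 CPM. Kdm6a was at 27.8, 39.4 and 31.5 CPM in the Utx KO libraries and 44.3, 49.3 and 53.6 CPM in the WT libraries, lower in each Utx KO library but present in all (log2 fold change −0.57 with SE 0.15, limma adjusted p = 0.0123). The adjusted p reached 0.0554 without Utx KO replicate 1, 0.0528 without WT replicate 2, 0.0708 without WT replicate 3 and 0.0984 with DESeq2, over a range of 0.0056 to 0.0984 across the alternatives, and a 3' tag outside the deleted part checks nothing. The defining CD8 T-cell marker Cd8a was at 278, 295 and 301 CPM in Utx KO and 239, 268 and 264 CPM in WT libraries (adjusted p = 0.0923). The list of CD8 T-cell markers includes general T-cell genes such as Cd3d and Cd3e. Of its 6 tested genes 3 were called higher in Utx KO (Cd3d, Cd3e and Cd8b1) and 0 lower. Over all tested genes 5.28% were called higher and 5.51% lower. Trac was listed at 0 in every library. The summed levels were 1916 to 1969.6 CPM in Utx KO and 1612 to 1729 CPM in WT. Markers of other cells were far below those of CD8 T cells, but not all at 0. Summed over 7 B-cell genes the level was 0.571 to 1.85 CPM in Utx KO and 2.77 to 5.47 CPM in WT, without overlap. Over 8 myeloid genes, 1 of them tested, it was 7.55 to 12.4 CPM in Utx KO and 7.11 to 8.29 CPM in WT. Over 4 CD4 T-cell genes, 2 of them tested, it was 11.1 to 13.5 CPM in Utx KO and 11.5 to 17.5 CPM in WT. The sum over 4 natural killer genes was 0.00 to 1.85 CPM in Utx KO and 0.395 to 1.09 CPM in WT. Over 6 erythroid genes the sum was 2.29 to 3.09 CPM in Utx KO and 0.00 to 0.461 CPM in WT, without overlap. In these libraries 1 read stood for 0.395 to 0.618 CPM, so the B-cell, natural killer and erythroid sums rest on few reads. Only 1 gene was tested in the B-cell list and 1 in the erythroid list, and neither was called. All 5 neutrophil genes, with Cd4, Ms4a1, Cd79a, Adgre1 and Lyz2, were listed at 0 in every library.

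Most genes of the glycolytic chain did not pass the test, while several HIF-linked genes were higher in Utx KO cells and Hif1a itself was lower. In the fit over all genes (limma on log2(CPM + 1), Benjamini-Hochberg adjusted p under 0.05), 8 of the 39 genes were called higher in Utx KO, against 5.28% of all 10590 tested genes, and 1 was called lower, against 5.51%. Together these were 23.1% of the genes, against 10.8% of all tested genes. The 39 genes were chosen with earlier results of these data known. These shares therefore describe the list and do not test it. Of the 24 glycolytic enzymes and carriers 3 were called, or 12.5%, which is near the background, and of the 15 HIF-linked genes 6 were called, or 40.0%. With DESeq2, without WT replicate 2 or without Utx KO replicate 3 the HIF-linked calls were 3 of 15. They were 4 of 15 without Utx KO replicate 2, without either of WT replicates 1 and 3, and with no filter on low values. Calls over all tested genes fell in these settings as well, from 1142 to 551 with DESeq2 and 754 without WT replicate 2. With no filter on low values they fell little, to 1084. Of the enzymes and carriers 2 of 24 were called, or 8.33%, with DESeq2, without WT replicate 2 or without Utx KO replicate 2. The median log2 fold change was 0.03 over the enzymes and carriers and 0.15 over the HIF-linked genes, beside 0.01 over all tested genes. Means below are given ± SD with n = 3 libraries per genotype. In 17 of the 39 genes the libraries of the genotypes did not overlap, 13 with Utx KO above and 4 with Utx KO below, whereas 26.5% of all tested genes were separated in this way. The count of called higher genes was 4 with DESeq2, 4 without WT replicate 2 and 5 without Utx KO replicate 2 or Utx KO replicate 3. Slc2a3, Gpi1, Hif1a, Egln3 and Ndrg1 passed the threshold under all 16 alternative settings, and Aldoc, P4ha1, P4ha2 and Ankrd37 did not. The called genes are all annotated as protein-coding in GENCODE M21 (GRCm38): Slc2a3 (ENSMUSG00000003153) at chr6:122727809-122801640, Gpi1 (ENSMUSG00000036427) at chr7:34201330-34230336, Aldoc (ENSMUSG00000017390) at chr11:78322968-78327781, Hif1a (ENSMUSG00000021109) at chr12:73901375-73947530, Egln3 (ENSMUSG00000035105) at chr12:54178981-54203860, Ndrg1 (ENSMUSG00000005125) at chr15:66929318-66969640, P4ha1 (ENSMUSG00000019916) at chr10:59323296-59373304, P4ha2 (ENSMUSG00000018906) at chr11:54100095-54131665 and Ankrd37 (ENSMUSG00000050914) at chr8:45996902-46005707.

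**Figure D1:**
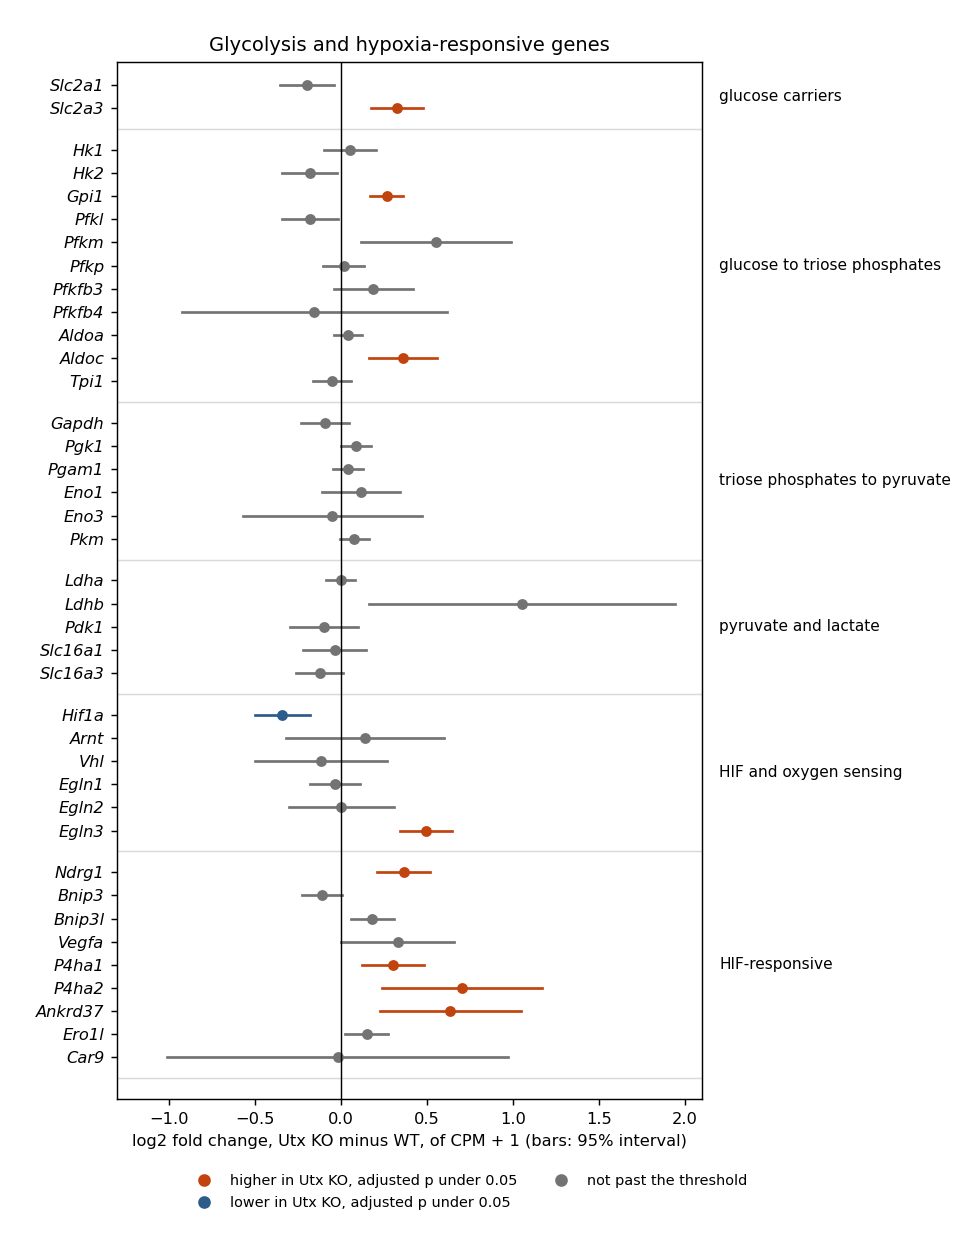
Log2 fold change (Utx KO minus WT, of CPM + 1) of the 39 genes in the order of their roles, from glucose carriers at the top to HIF-responsive genes at the bottom, with 95% intervals from limma. The 8 genes higher in Utx KO are orange, with 4 of them in the lowest group, and Hif1a alone lies below 0 past the threshold.

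Because the called HIF-linked genes are known for their links to HIF, the letters upstream of the called genes are shown here. RefSeq windows (build GRCm38.p6) were matched for 36 of the 39 genes; Slc2a3, Ndrg1 and Bnip3l had no entry. Each sequence is the 250 bases before a transcript start that RefSeq annotates, read 5′ to 3′ on the strand of the gene, and capitals mark ACGTG and GCGTG, the core letters of the HIF response element, or their reverse complements CACGT and CACGC. These starts differ from the GENCODE gene ends above: the Hif1a, P4ha2 and Ankrd37 windows lie inside the GENCODE gene, and the Aldoc window spans its first base. Where a gene has several windows, as Aldoc does, the first in the table is given and counted.
They lie at chr7:34230337-34230586, minus strand (Gpi1), chr11:78322823-78323072, plus strand (Aldoc), chr12:73907617-73907866, plus strand (Hif1a), chr12:54203875-54204124, minus strand (Egln3), chr10:59323046-59323295, plus strand (P4ha1), chr11:54100674-54100923, plus strand (P4ha2) and chr8:45999851-46000100, minus strand (Ankrd37).
Gpi1: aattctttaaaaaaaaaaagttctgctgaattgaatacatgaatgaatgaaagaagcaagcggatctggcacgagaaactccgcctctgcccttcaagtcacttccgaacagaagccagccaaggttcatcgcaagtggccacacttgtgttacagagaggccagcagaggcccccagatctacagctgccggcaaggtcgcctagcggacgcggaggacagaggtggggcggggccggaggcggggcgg
Aldoc: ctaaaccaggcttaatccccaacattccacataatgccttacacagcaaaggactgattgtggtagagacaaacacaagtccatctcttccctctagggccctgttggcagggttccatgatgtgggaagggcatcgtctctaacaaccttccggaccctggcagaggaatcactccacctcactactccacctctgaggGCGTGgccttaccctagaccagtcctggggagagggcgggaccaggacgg
Hif1a: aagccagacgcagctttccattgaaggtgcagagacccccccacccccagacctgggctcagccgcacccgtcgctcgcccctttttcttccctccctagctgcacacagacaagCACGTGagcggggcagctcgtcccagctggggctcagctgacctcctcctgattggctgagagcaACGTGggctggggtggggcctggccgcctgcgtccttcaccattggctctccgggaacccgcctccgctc
Egln3: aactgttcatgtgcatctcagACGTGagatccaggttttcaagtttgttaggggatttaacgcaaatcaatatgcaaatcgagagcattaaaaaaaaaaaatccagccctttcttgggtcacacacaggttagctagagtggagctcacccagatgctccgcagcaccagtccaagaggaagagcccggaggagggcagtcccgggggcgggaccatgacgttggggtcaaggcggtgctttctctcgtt
P4ha1: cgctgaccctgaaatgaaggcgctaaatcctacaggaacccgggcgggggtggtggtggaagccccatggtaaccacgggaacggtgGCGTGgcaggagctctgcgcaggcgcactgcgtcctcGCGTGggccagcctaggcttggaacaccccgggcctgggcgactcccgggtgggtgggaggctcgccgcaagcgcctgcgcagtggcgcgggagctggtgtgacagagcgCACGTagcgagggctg
P4ha2: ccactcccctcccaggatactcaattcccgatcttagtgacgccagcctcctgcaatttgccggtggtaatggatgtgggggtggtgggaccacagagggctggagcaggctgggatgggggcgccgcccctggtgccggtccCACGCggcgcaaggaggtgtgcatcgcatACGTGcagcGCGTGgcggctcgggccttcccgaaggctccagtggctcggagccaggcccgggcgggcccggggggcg
Ankrd37: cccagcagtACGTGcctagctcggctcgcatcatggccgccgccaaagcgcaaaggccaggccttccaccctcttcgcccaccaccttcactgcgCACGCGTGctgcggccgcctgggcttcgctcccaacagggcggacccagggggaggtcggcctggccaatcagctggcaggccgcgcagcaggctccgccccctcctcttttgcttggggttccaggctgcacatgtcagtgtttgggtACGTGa

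The core letters stood in 6 of these 7 windows and in 23 of the 29 windows of genes that were not called, or 79.3%. Over the first window of each gene they stood in 29 of 36 genes of the set, or 80.6%, against 58.7% of 8572 tested genes and 38.6% of all 27025 genes in the table. Over any window of a gene they stood in 33 of 36, or 91.7%, against 63.2% of tested genes and 41.5% of all genes in the table. The set was listed as glycolytic and HIF-linked genes, so a higher share than in other genes says nothing of Utx KO. Ankrd37 held 4 matches, the nearest 6 bases from the RefSeq start (counted to the first base of the match), with CACGC and GCGTG overlapping in one run. P4ha1, P4ha2 and Hif1a held 3 each, the nearest at 16, 69 and 70 bases. Aldoc had 1 match 50 bases from the start, Egln3 had 1 at 229 bases, and Gpi1 had 0. Of the 3 Hif1a matches 2 are the same letters CACGTG, the E-box bound by Myc and related factors, which holds ACGTG on both strands and was counted on each. That E-box stood in 5 of 36 windows of the gene set, or 13.9%, against 8.68% of tested genes. The median GC content of the windows was 62.4% in the gene set and 60.0% in tested genes. A match is a description of letters, not a binding site, and windows without a match say nothing of HIF.

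Glucose enters through carriers of the facilitated type, and the pair examined here had differences of opposite sign, 1 of them called. Slc2a3 (GLUT3), the high-affinity carrier found in neurons and lymphocytes, was at 220.4, 234 and 235 CPM in the Utx KO libraries and 194, 174 and 181 CPM in the WT libraries. Each Utx KO library was above each WT library, and the gene was called higher (log2 fold change 0.33 with SE 0.07, limma adjusted p = 0.00351). Slc2a1 (GLUT1), the main carrier induced by T-cell activation, was at 183, 163 and 180.3 CPM in the Utx KO libraries and 193, 196 and 214 CPM in the WT libraries. Here each Utx KO library lay below each WT library, but the difference missed the threshold (log2 fold change −0.20 with SE 0.08, limma adjusted p = 0.116, 95% interval −0.35 to −0.04). As a share of the summed CPM of both carriers, Slc2a3 took 56.7% ± 2.19 in Utx KO and 47.7% ± 2.27 in WT (SD, n = 3 each), and the shares did not overlap. Their sum stayed between 370.0 and 415 CPM over the 6 libraries. In these bulk libraries, fewer cells with a transcript and less of it per cell cannot be told apart.

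The first enzymes trap glucose as a phosphate and turn it to fructose bisphosphate. Hk2, the hexokinase induced in activated T cells, was at 205, 242 and 249.5 CPM in the Utx KO libraries and 246, 282 and 262 CPM in the WT libraries. Utx KO replicate 3 was within the WT values, and the difference was not called (log2 fold change −0.18 with SE 0.08, limma adjusted p = 0.157, 95% interval −0.34 to −0.02). Hk1, the constitutive hexokinase, averaged 189.8 ± 5.79 CPM in Utx KO and 183 ± 8.14 CPM in WT (adjusted p = 0.723). Gpi1, which converts glucose 6-phosphate to fructose 6-phosphate, was at 911, 921 and 968 CPM in the Utx KO libraries and 778, 754 and 793 CPM in the WT libraries. All Utx KO libraries stood above all WT libraries (log2 fold change 0.27 with SE 0.05, limma adjusted p = 0.000311). Its last 300 transcribed bases share 22.8% of their 50-base pieces with a processed pseudogene, for which no reads were counted. A share of pieces is not a share of reads, and how such reads were assigned is not given.

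Of the phosphofructokinases, which commit sugar to glycolysis, none was called. The platelet form Pfkp carried most of the reads, with 451 ± 22.8 CPM in Utx KO and 445 ± 17.8 CPM in WT (adjusted p = 0.903). The liver form Pfkl averaged 158 ± 10.6 CPM in Utx KO and 179 ± 7.56 CPM in WT, with the Utx KO libraries below (log2 fold change −0.18 with SE 0.08, limma adjusted p = 0.169). The muscle form Pfkm had a positive difference at a low level, with 22.0 ± 4.03 CPM in Utx KO and 14.7 ± 3.12 CPM in WT and no overlap (log2 fold change 0.55 with SE 0.21, limma adjusted p = 0.105). Both values missed the threshold. Pfkfb3, which makes the fructose 2,6-bisphosphate that activates phosphofructokinase, averaged 74.0 ± 6.25 CPM in Utx KO and 64.7 ± 4.54 CPM in WT (adjusted p = 0.334). Its hypoxia-induced relative Pfkfb4 had 15 reads over the Utx KO libraries and 20 over the WT libraries, and its 95% interval of −0.92 to 0.62 on the log2 scale excludes little.

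The aldolases cut fructose bisphosphate into triose phosphates, and the minor form was the one called. Aldoc, the brain form that also responds to hypoxia, was at 136, 156 and 132 CPM in the Utx KO libraries and 119, 97.2 and 114 CPM in the WT libraries. All Utx KO libraries were above all WT libraries (log2 fold change 0.36 with SE 0.09, limma adjusted p = 0.0133), but the adjusted p was 0.118 without WT replicate 2, 0.101 without Utx KO replicate 2 and 0.0866 with DESeq2, over a range of 0.00829 to 0.118. Aldoa, the main form in lymphocytes, was at 3065, 3004 and 3219.7 CPM in the Utx KO libraries and 2907, 2919.7 and 3189.8 CPM in the WT libraries. These overlapped (log2 fold change 0.04 with SE 0.04, limma adjusted p = 0.573, 95% interval −0.04 to 0.12), and Aldoa held 95.6% ± 0.507 of aldolase CPM in Utx KO and 96.5% ± 0.364 in WT. Tpi1, which interconverts the triose phosphates, averaged 521 ± 21.7 CPM in Utx KO and 540.5 ± 8.06 CPM in WT (adjusted p = 0.625).

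From the triose phosphates to pyruvate, 0 of 6 genes were called. Gapdh, which oxidises glyceraldehyde 3-phosphate, was at 248, 246 and 246 CPM in the Utx KO libraries and 252, 282 and 256 CPM in the WT libraries. The Utx KO libraries lay just below the WT libraries, and the gene was not called (log2 fold change −0.09 with SE 0.07, limma adjusted p = 0.456). Gapdh shares 78.3% of its 3' pieces with 172 other genes, 159 of them processed pseudogenes, so its own level is uncertain. Pgk1, the first step to yield ATP and a classical HIF target, was at 1591, 1581 and 1707 CPM in the Utx KO libraries and 1539, 1488 and 1560.4 CPM in the WT libraries. These values did not overlap, yet the difference was small and not called (log2 fold change 0.09 with SE 0.04, limma adjusted p = 0.207, 95% interval 0.002 to 0.17). Pgam1, the phosphoglycerate mutase, averaged 1915 ± 9.42 CPM in Utx KO and 1864 ± 112 CPM in WT (adjusted p = 0.639).

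Enolase 1 is listed under identifiers that are nearly alike at the 3' end. Eno1 averaged 409 ± 98.8 CPM in Utx KO and 372 ± 56.0 CPM in WT (adjusted p = 0.588), with 86.9% of its 3' pieces also in the near-identical copy Eno1b. Eno1b averaged 1542 ± 85.6 CPM in Utx KO and 1469.5 ± 63.0 CPM in WT, and Eno1 held 16.6% to 25.9% of their sum. The sum was 1886, 1968 and 2001 CPM in the Utx KO libraries and 1802, 1770.4 and 1953 CPM in the WT libraries (log2 fold change 0.08, SE 0.04, adjusted p = 0.236), a calculation added after the data were seen. The muscle enolase Eno3 averaged 12.0 ± 3.18 CPM in Utx KO and 12.3 ± 2.25 CPM in WT (adjusted p = 0.947). Pkm, the pyruvate kinase that closes the chain, was at 1968, 2033 and 2129 CPM in the Utx KO libraries and 1882, 1921 and 1994 CPM in the WT libraries. The groups overlapped (log2 fold change 0.08 with SE 0.04, limma adjusted p = 0.235, 95% interval −0.002 to 0.16), and 20.7% of the Pkm pieces occur in other genes.

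Pyruvate and lactate genes held 0 calls of 5. Ldha, the lactate dehydrogenase that makes lactate in activated T cells, was at 1711, 1645 and 1647 CPM in the Utx KO libraries and 1670.2, 1609 and 1725 CPM in the WT libraries. The means were alike at 1668 ± 37.7 CPM in Utx KO and 1668 ± 58.3 CPM in WT (SD, n = 3 each), with a 95% interval of −0.08 to 0.08 for the log2 fold change; 20.5% of the Ldha pieces occur in other genes. Ldhb, the form that favours the reverse reaction, had 16 reads over the Utx KO libraries and 6 over the WT libraries, or 0.167% ± 0.0495 of lactate dehydrogenase CPM in Utx KO and 0.0516% ± 0.0372 in WT (log2 fold change 1.05 with SE 0.43, limma adjusted p = 0.135). Pdk1, a kinase that closes the entry of pyruvate into mitochondria, averaged 86.4 ± 4.66 CPM in Utx KO and 92.4 ± 1.51 CPM in WT (adjusted p = 0.614). The lactate exporter Slc16a3 (MCT4) averaged 338 ± 13.6 CPM in Utx KO and 368 ± 32.5 CPM in WT (adjusted p = 0.287). Slc16a1 (MCT1), which carries lactate both ways, averaged 114 ± 7.80 CPM in Utx KO and 117 ± 3.76 CPM in WT (adjusted p = 0.881).

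**Figure D2:**
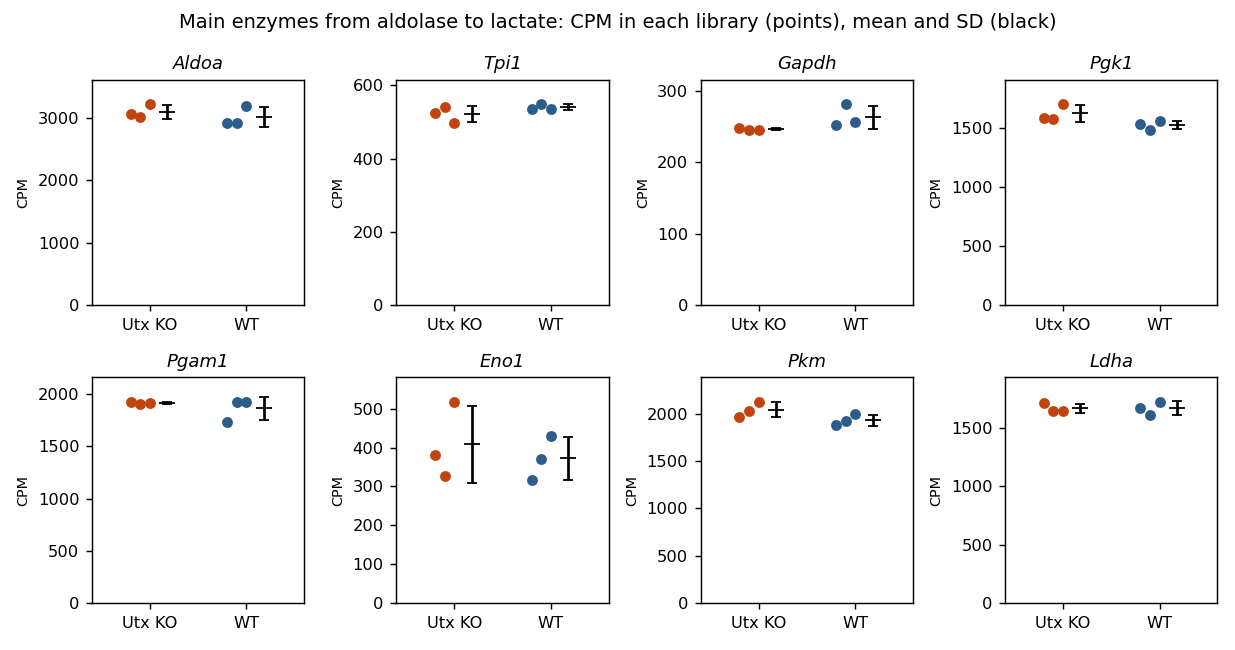
CPM of the 8 main enzymes from aldolase to lactate dehydrogenase in each library (points, Utx KO left of WT), with the mean and SD in black; each axis starts at 0. None of the 8 was called, and the Ldha means are alike at 1668 ± 37.7 CPM in Utx KO and 1668 ± 58.3 CPM in WT.

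The regulators of HIF held the 1 lower call and the call with the smallest p of the gene set. Hif1a, the oxygen-regulated subunit, was at 139, 129.7 and 139.6 CPM in the Utx KO libraries and 171, 176 and 169.6 CPM in the WT libraries. All Utx KO libraries lay below all WT libraries (log2 fold change −0.34 with SE 0.08, limma adjusted p = 0.00482). Transcript level does not show the level of this protein, which is set largely by its breakdown. Egln3, a prolyl hydroxylase that marks the alpha subunit and is itself induced by HIF, was at 281, 252 and 287 CPM in the Utx KO libraries and 182, 194 and 206 CPM in the WT libraries. Each Utx KO library exceeded each WT library, and the mean was higher by 41.2% (log2 fold change 0.50 with SE 0.07, limma adjusted p = 4.28e-05).

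The other parts of the oxygen sensor were not called. Egln1, the main hydroxylase in most tissues, averaged 223 ± 11.7 CPM in Utx KO and 229 ± 9.28 CPM in WT (adjusted p = 0.844). Egln3 thus held 50.7% ± 1.85 of the CPM of the 3 hydroxylases in Utx KO and 41.7% ± 2.61 in WT, and Egln1 held 41.4% ± 0.469 in Utx KO and 49.2% ± 1.83 in WT. Egln2, another hydroxylase of this family, averaged 42.5 ± 7.80 CPM in Utx KO and 42.0 ± 3.78 CPM in WT (adjusted p = 0.99). The partner subunit Arnt averaged 15.8 ± 3.03 CPM in Utx KO and 14.1 ± 1.42 CPM in WT (adjusted p = 0.771). Vhl, the ubiquitin ligase subunit, averaged 19.7 ± 1.32 CPM in Utx KO and 21.5 ± 2.40 CPM in WT (adjusted p = 0.787). At these levels the intervals are wide, −0.32 to 0.60 for Arnt and −0.50 to 0.27 for Vhl on the log2 scale.

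Of 9 genes known as HIF-responsive, 4 were called higher and 0 lower, with a median log2 fold change of 0.30. Over all tested genes 5.28% were called higher and 5.51% lower. Calls over all genes also fell in the settings that follow, but little with no filter on low values. From 1142 they went to 551 with DESeq2, 754 without WT replicate 2 and 912 without Utx KO replicate 3. With no filter on low values they went to 1084. The count of HIF-responsive genes was 1 of 9, Ndrg1, with DESeq2, without WT replicate 2 or without Utx KO replicate 3. It was 2 of 9 without Utx KO replicate 2, without either of WT replicates 1 and 3, and with no filter on low values. Ndrg1, a stress-induced protein known as a regulator of T-cell anergy in mice, was at 226, 216 and 196 CPM in the Utx KO libraries and 166, 164 and 164 CPM in the WT libraries. The WT libraries were nearly identical and all Utx KO libraries stood above them (log2 fold change 0.37 with SE 0.08, limma adjusted p = 0.00172). P4ha1, a catalytic subunit of the collagen prolyl hydroxylase, was at 124, 141 and 142 CPM in the Utx KO libraries and 114, 105 and 110.5 CPM in the WT libraries. The groups did not overlap (log2 fold change 0.30 with SE 0.09, limma adjusted p = 0.0259). The adjusted p was 0.123 without WT replicate 2, 0.0607 without WT replicate 3, 0.105 without Utx KO replicate 2, 0.0994 without Utx KO replicate 3 and 0.194 with DESeq2, over a range of 0.00936 to 0.194.

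P4ha2 and Ankrd37 had the largest fold changes of the called genes and the fewest reads. P4ha2, the other catalytic subunit of that enzyme, was at 25.4, 15.4 and 18.5 CPM in the Utx KO libraries and 12.3, 12.0 and 10.4 CPM in the WT libraries. Utx KO replicate 1 stood highest, and the groups did not overlap (log2 fold change 0.70 with SE 0.23, limma adjusted p = 0.0456). Its call was lost without any 1 library except Utx KO replicate 2 (adjusted p 0.0749, 0.0951 and 0.127 without WT replicates 1, 2 and 3, and 0.231 and 0.0798 without Utx KO replicates 1 and 3); it was 0.0706 with no filter on low values and 0.241 with DESeq2, over a range of 0.0173 to 0.241. Ankrd37, an ankyrin repeat protein used in signatures of hypoxia, was at 27.0, 25.1 and 28.4 CPM in the Utx KO libraries and 17.0, 12.9 and 21.9 CPM in the WT libraries. WT replicate 3 came closest to the Utx KO libraries without overlap (log2 fold change 0.64 with SE 0.20, limma adjusted p = 0.0387). Its call was lost without any 1 library except WT replicate 3 (adjusted p 0.0819 and 0.219 without WT replicates 1 and 2, and 0.0854, 0.0733 and 0.113 without Utx KO replicates 1, 2 and 3); it was 0.0537 with no filter on low values and 0.270 with DESeq2, over a range of 0.015 to 0.27. Ankrd37 shares exon positions on the opposite strand with Ufsp2, which averaged 74.5 CPM in Utx KO and 79.3 CPM in WT, and the handling of strand in the counting is not given in the sources used here.

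The remaining HIF-responsive genes did not pass. Bnip3l, a receptor for the removal of mitochondria, just missed the threshold, at 383 ± 17.0 CPM in Utx KO and 337 ± 9.86 CPM in WT with no overlap (log2 fold change 0.18 with SE 0.06, limma adjusted p = 0.0506). That p was 0.0203 without Utx KO replicate 1, 0.0470 with a filter of 5 CPM and 0.0433 with edgeR, over a range of 0.0203 to 0.225. Its close relative Bnip3, also a mitophagy receptor, averaged 466 ± 19.7 CPM in Utx KO and 503 ± 21.1 CPM in WT (adjusted p = 0.251). Bnip3l thus held 45.2% ± 1.83 of the pair's CPM in Utx KO and 40.2% ± 1.08 in WT. Ero1l, the oxidase that forms disulfide bonds in the endoplasmic reticulum, averaged 438 ± 17.6 CPM in Utx KO and 394 ± 24.0 CPM in WT, with no overlap (log2 fold change 0.15 with SE 0.06, limma adjusted p = 0.123). Vegfa, the vascular growth factor, averaged 38.5 ± 5.78 CPM in Utx KO and 30.4 ± 4.27 CPM in WT (log2 fold change 0.33 with SE 0.16, limma adjusted p = 0.212). Car9, the carbonic anhydrase often used as a hypoxia marker, had 7 reads over the Utx KO libraries and 10 over the WT libraries, near the limit of detection in both.

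**Figure D3:**
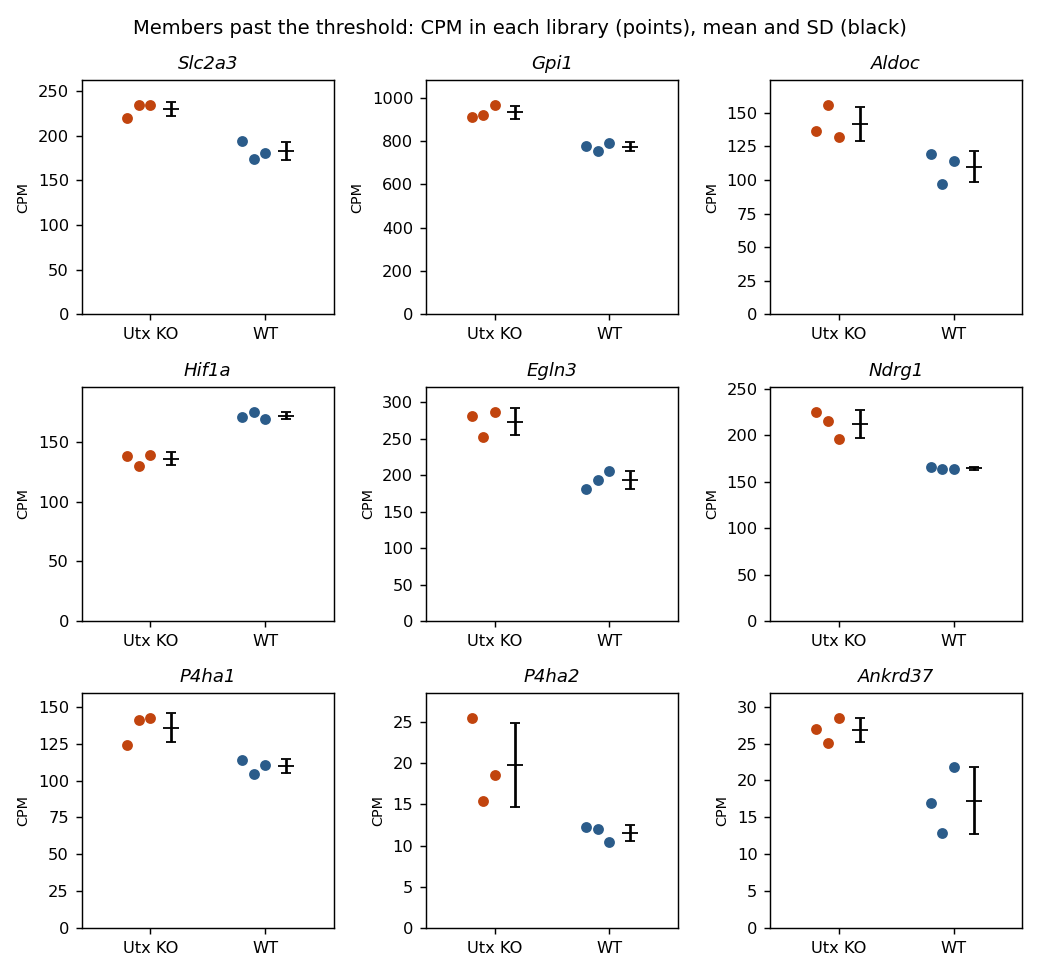
CPM of the 9 called genes in each library (points, Utx KO left of WT), with the mean and SD in black; each axis starts at 0. Hif1a is lower in all 3 Utx KO libraries and the other 8 genes are higher in all 3.

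Among families in which several members do the same step, the balance of paralogs was compared within each library, since 3' reads give about 1 tag per transcript and are not scaled by length. In 7 of 11 families the share of the first-named paralog did not overlap between genotypes. The levels of 26.5% of all tested genes were separated in this way, but shares in other gene families were not computed. The 7 include the families of the called genes Slc2a3, Aldoc and Egln3. They also include the lactate dehydrogenases, whose shift of −0.116 percentage points rests on 16 Ldhb reads in Utx KO and 6 in WT. The shift was −9.04 percentage points for Slc2a1 against Slc2a3, −7.83 points for Egln1 within the hydroxylases and −5.00 points for Bnip3 against Bnip3l. Hk1 held 45.1% ± 2.34 of hexokinase CPM in Utx KO and 41.0% ± 2.45 in WT, a shift of 4.03 points. An exact two-sided permutation test of 3 against 3 libraries cannot go below p = 0.1, the value each of these 7 families reached, and the adjusted value over the 11 families was 0.157. The shares are therefore descriptions. Lactate carriers, enolases (Eno1 and Eno3, without Eno1b), PFKFB enzymes and the prolyl hydroxylase subunits P4ha1 and P4ha2 had overlapping shares.

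**Figure D4:**
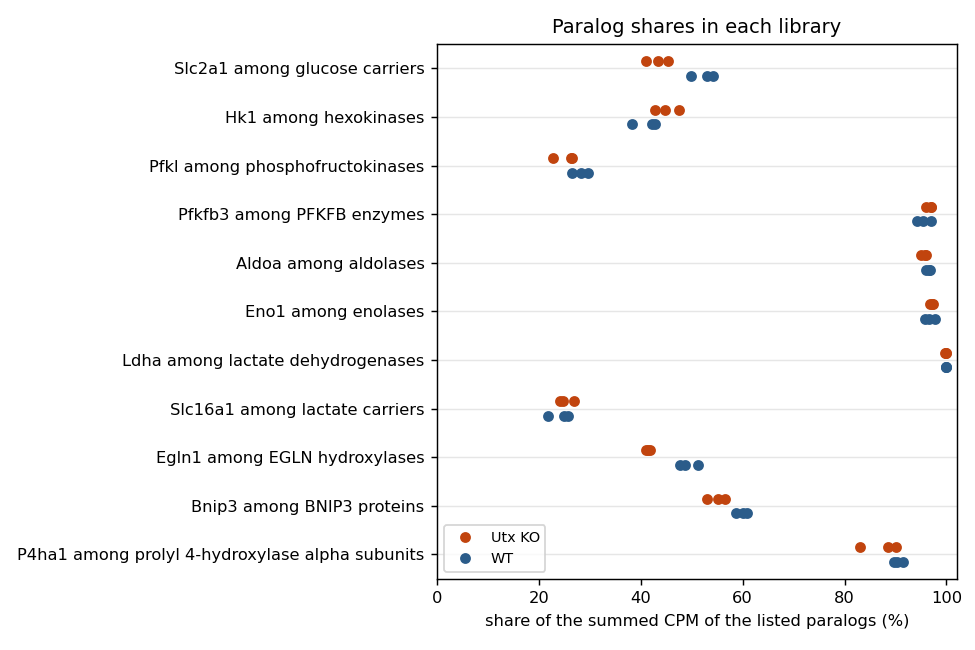
Share of the named paralog in the summed CPM of its family in each library (percent; points, Utx KO above WT in each family). The Slc2a1 share averages 43.3% in Utx KO and 52.3% in WT, and the Egln1 share 41.4% in Utx KO and 49.2% in WT.

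Genes around these pathways were counted in the same fit, in lists also chosen with earlier results of these data known. Of 168 further genes in 8 lists, 142 were tested, and 16 were called higher and 6 lower, or 15.5%, against 10.8% of all tested genes. With DESeq2 4 were higher and 5 lower. Without WT replicate 2 there were 8 higher and 6 lower, and without Utx KO replicate 2 there were 10 higher and 6 lower. Of 17 tested relatives of the glycolytic genes 0 were higher and 2 lower. Gpd2, the mitochondrial glycerol 3-phosphate dehydrogenase that passes electrons from cytosolic NADH to the respiratory chain, was at 64.0, 71.4 and 69.2 CPM in the Utx KO libraries and 133, 132 and 127 CPM in the WT libraries. The groups lay far apart without overlap (log2 fold change −0.93 with SE 0.09, limma adjusted p = 1.87e-07), and the log2 fold change exceeded in size that of each called glycolytic enzyme. Slc16a6, a carrier of the monocarboxylate family, averaged 96.6 ± 13.9 CPM in Utx KO and 139.6 ± 12.4 CPM in WT (log2 fold change −0.53 with SE 0.10, limma adjusted p = 0.000926).

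In the pentose phosphate pathway, a side branch that makes NADPH and ribose, 2 of 8 genes were called higher and 0 lower. The calls were 25.0% of this short list, against 10.8% of all tested genes. The median of the list was −0.11 on the log2 scale, with 5 of 8 genes below 0. In 3 genes all Utx KO libraries lay above all WT libraries and in 3 they lay below, whereas 26.5% of all tested genes were separated in either direction. Those below were H6pd, G6pdx and Pgd, dehydrogenases of its NADPH-making steps, and none of them passed the test. Their log2 fold changes were −0.71 (adjusted p = 0.0857), −0.21 (adjusted p = 0.392) and −0.16 (adjusted p = 0.286). Those above were Tkt, Pgls and Taldo1, the last without a call (log2 fold change 0.20, adjusted p = 0.155). Tkt, the transketolase, averaged 522 ± 26.3 CPM in Utx KO and 437 ± 18.8 CPM in WT (log2 fold change 0.26 with SE 0.06, limma adjusted p = 0.00387). Pgls, the lactonase of that pathway, averaged 173 ± 11.5 CPM in Utx KO and 142 ± 9.48 CPM in WT (log2 fold change 0.29 with SE 0.08, limma adjusted p = 0.0242; 0.123 without WT replicate 1, 0.0928 without WT replicate 2, 0.0706 without Utx KO replicate 1, 0.0949 without Utx KO replicate 2 and 0.132 with DESeq2). Of 10 glycogen genes 2 were higher and 0 lower. Pygl, a glycogen phosphorylase, averaged 88.5 ± 13.4 CPM in Utx KO and 57.7 ± 3.48 CPM in WT (log2 fold change 0.60 with SE 0.12, limma adjusted p = 0.00101). Pgm1, the phosphoglucomutase that links glycogen to glycolysis, averaged 153 ± 6.17 CPM in Utx KO and 122 ± 8.79 CPM in WT (log2 fold change 0.32 with SE 0.08, limma adjusted p = 0.0127; 0.0917 without WT replicate 2, 0.0697 without Utx KO replicate 2 and 0.0984 with DESeq2).

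Entry of pyruvate into mitochondria held 0 calls of 12 genes. The tricarboxylic acid cycle held 2 higher and 0 lower of 21, or 9.52%, against 10.8% of all tested genes. The cycle held 0 calls with DESeq2, without Utx KO replicate 1, and without either of WT replicates 1 and 2. Sdhb, the iron-sulfur subunit of succinate dehydrogenase, averaged 330.5 ± 16.3 CPM in Utx KO and 282 ± 10.9 CPM in WT (log2 fold change 0.23 with SE 0.06, limma adjusted p = 0.0216). Its adjusted p was 0.104 without WT replicate 1, 0.0813 without WT replicate 2, 0.0583 without Utx KO replicate 1, 0.0760 without Utx KO replicate 3 and 0.0998 with DESeq2. Mdh2, the mitochondrial malate dehydrogenase, averaged 419 ± 24.1 CPM in Utx KO and 368 ± 13.3 CPM in WT (log2 fold change 0.19 with SE 0.06, limma adjusted p = 0.0476), and it passed in 4 of 16 alternatives, with adjusted p over the range 0.0259 to 0.211. The median log2 fold change of the cycle genes was 0.14, with 18 of 21 above 0, beside 5401 of 10590 over all tested genes.

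Around HIF itself, 1 of 16 genes was called higher and 0 lower, or 6.25%, against 10.8% of all tested genes. That gene was Rack1, a ribosomal scaffold that also binds the HIF alpha subunit in human cells, at 1557 ± 72.8 CPM in Utx KO and 1325 ± 18.0 CPM in WT (log2 fold change 0.23 with SE 0.04, limma adjusted p = 0.000498). The relative Epas1 was near the limit of detection, with 0.968 ± 0.878 CPM in Utx KO and 1.08 ± 1.06 CPM in WT. Of 39 further genes known to be induced by hypoxia, 7 were higher and 4 lower, so that calls ran both ways. These were 28.2% of the list, whereas 5.28% of all tested genes were called higher and 5.51% lower. With DESeq2 the balance was 1 higher (Cxcr4) and 3 lower, and without WT replicate 2 it was 4 higher and 4 lower. With a filter of 5 CPM, edgeR or limma-voom it was 6 higher and 4 lower of 35 tested. Nfil3, a transcription factor of lymphocytes, averaged 46.6 ± 1.66 CPM in Utx KO and 81.7 ± 10.3 CPM in WT (log2 fold change −0.79 with SE 0.12, limma adjusted p = 4.67e-05). Ddit4, an inhibitor of mTORC1, averaged 347 ± 73.3 CPM in Utx KO and 213 ± 39.0 CPM in WT (log2 fold change 0.69 with SE 0.12, limma adjusted p = 0.000197; 0.0665 with DESeq2). Cxcr4, the receptor for Cxcl12, averaged 79.8 ± 6.41 CPM in Utx KO and 51.2 ± 7.99 CPM in WT (log2 fold change 0.64 with SE 0.12, limma adjusted p = 0.000838).

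Upstream drivers of T-cell glycolysis held 2 higher calls and 0 lower of 21 genes, or 9.52%, against 10.8% of all tested genes. The median log2 fold change was −0.05, with 14 of 21 genes below 0. All Utx KO libraries lay below all WT libraries in 6 genes and above in 2, whereas 26.5% of all tested genes were separated. There were 0 higher calls with DESeq2 or without Utx KO replicate 2, and 1 without any other single library. There was 1 lower call with a filter of 5 CPM, TMM or median-of-ratios scaling, edgeR, limma-voom or without Utx KO replicate 2. Bcl6, a repressor that can restrain glycolytic genes in T cells, had 14 reads over the Utx KO libraries and 1 over the WT libraries (log2 fold change 1.56 with SE 0.46, limma adjusted p = 0.0296). It reached 1 CPM in the 3 Utx KO libraries alone and so entered the test through the group in which it is high, which had to differ. Its adjusted p was 0.0722 with a pseudocount of 0.1, 0.0983 without WT replicate 1, 0.0828 without WT replicate 3, 0.0554 without Utx KO replicate 1, 0.132 without Utx KO replicate 2 and 0.158 with DESeq2. Myc, which drives glycolytic genes after activation, was at 89.8, 58.3 and 51.9 CPM in the Utx KO libraries and 54.6, 60.8 and 47.0 CPM in the WT libraries (adjusted p = 0.336). Txnip, an inhibitor of glucose uptake, averaged 150.1 ± 17.0 CPM in Utx KO and 151 ± 14.9 CPM in WT (adjusted p = 0.976). Of 15 proliferation genes 1 was called higher (Plk1) and 1 lower (Pcna), and the marker Mki67 averaged 789 ± 122 CPM in Utx KO and 789 ± 50.6 CPM in WT (adjusted p = 0.965). Their part in the results above was not tested.

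**Figure D5:**
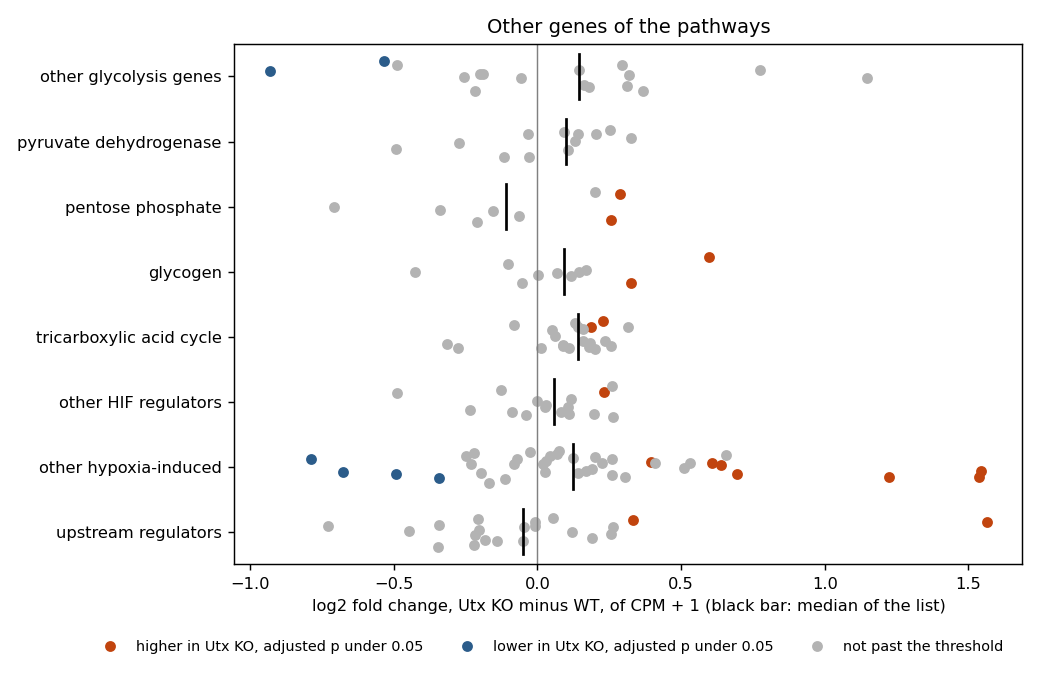
Log2 fold change (Utx KO minus WT, of CPM + 1) of each tested gene in 8 lists of neighbouring pathways, 1 point per gene, with called genes coloured and the median of each list as a black bar. The 39 further hypoxia-induced genes hold 7 higher and 4 lower calls, and the list of glycolysis relatives holds 2 lower calls, with Gpd2 at −0.93. Over all tested genes 5.28% are called higher and 5.51% lower.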

How the data were processed

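Each library has a deposited table of CPM values by the authors, covering 25655 Ensembl gene identifiers. Builds named in the submitters' processing notes were GRCm38 and mm10. The aligner, the counter and how it handled strand and multiply matching reads were not given in the sources used here. Per the labels, 500 ng of total RNA went into QuantSeq 3' libraries. Dividing the deposited CPM by the value of 1 read gave whole reads for 100% of values (tolerance 0.001 reads). Floors cover counting error only. The intervals given for log2 fold changes come from the limma fit and cover differences among libraries. Symbols were found for 25600 identifiers.

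Genes reaching 1 CPM in at least 3 libraries, 10590 in all, were tested with limma-trend (limma 3.58.1, R 4.3.3, robust = FALSE, genotype only) on log2(CPM + 1), two-sided, with Benjamini-Hochberg adjustment over all of them and a threshold of 0.05. Fold changes on this scale understate changes of low genes. Count tests on recovered reads (edgeR 4.0.16, which called 1106 genes, DESeq2 1.42.0 and limma-voom) and other settings served as alternatives. All 39 genes are given, values per library for called genes and main steps, and of each neighbouring list the 3 called genes with the lowest adjusted p at most. One gene that this rule names is not reported here. Plk1, Pcna, Epas1, Ufsp2, H6pd, G6pdx, Pgd, Taldo1 and the single cell-type markers were named after their values were seen. The 39 genes and the lists were chosen with earlier results of these data known. All 50-base pieces of the last 300 bases of each gene's transcripts (GENCODE M21, GRCm38) were searched in other genes' transcripts, and 5 genes had at least 20% elsewhere. Exons overlapped another gene on the same strand in 3 genes and on the opposite strand in 14.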

Additional observations from a re-analysis of the deposited data

How the results depend on the processing

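Of 616 combinations of a gene and an alternative setting, 569 kept direction and side of the threshold, 22 lost the call, 3 gained it and 22, in 8 genes not called either way, turned sign. DESeq2 called 551 genes over all (241 higher, 310 lower), 4 of the glycolysis and hypoxia genes higher and 4 of the neighbouring genes higher; the cause was not tested. Leaving out 1 library gave 754 to 1042 called genes over all, 362 to 473 higher and 392 to 569 lower, with 4 to 7 of the glycolysis and hypoxia genes higher and 8 to 13 neighbouring genes higher; fewer samples enter these fits. The low ends of the higher calls came without WT replicate 2. Limma-trend on all 6 libraries had called 1142 genes, 559 higher and 583 lower. Deviations of same-numbered libraries from their group means had r = 0.006, −0.003 and −0.010, and those of differently numbered libraries −0.022 to 0.023. Counting error lowers such correlations, so a pairing by number is not excluded. With the replicate as a block, 1065 genes were called (515 higher, 550 lower), and 8 of the 39 genes were higher and 1 lower. Signs turned where changes lay near 0. Ldha was at 0.0017 with edgeR and 0.0074 with limma-voom, and Egln2 at −0.00037 with TMM, −0.0025 with median-of-ratios scaling, −0.0087 with edgeR, −0.0050 with DESeq2 and −0.034 with limma-voom. Without 1 library the log2 fold change ran from −0.016 to 0.057 for Pfkp, −0.011 to 0.066 for Pgam1, −0.066 to 0.27 for Eno1, −0.20 to 0.16 for Eno3, −0.026 to 0.025 for Ldha, −0.078 to 0.019 for Slc16a1, −0.13 to 0.13 for Egln2, −0.28 to 0.36 for Car9, −0.092 to 0.073 for Txnip and −0.10 to 0.12 for Mki67. Depth limits Car9, Ldhb, Pfkfb4 and Bcl6, which had at most 20 reads per genotype.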
